A study of Homo sapiens with 12 samples.

Results

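The mitotic spindle and kinetochore genes examined here are 60 genes whose products build, move or watch over the spindle, and they were taken by symbol from a table of 62754 Ensembl gene identifiers. All 60 were found, and all 60 were among the 17115 genes with enough counts to be tested. They were read in PC9 cells, a human lung adenocarcinoma line grown from a subclone described earlier, by RNA sequencing of polyadenylated RNA. The 12 libraries fell into 4 groups of 3 cultures that were split from a common flask and then kept apart, so the spread between them covers cultures of 1 line and no other source. Of the 3 groups with intact TDP1, one had no drug (untreated WT), one was kept in erlotinib at 1 µM for 7 days (DTC, for drug-tolerant cells) and one at the same dose for 28 days (DTEC, for drug-tolerant expanded cells). The fourth group, KO, was KO2, a line in which TDP1 was knocked out, also without drug. Erlotinib inhibits the EGF receptor kinase, and TDP1 is an enzyme that clears DNA ends of trapped topoisomerase. KO2 is a single knockout line and was read without drug only, so no treated knockout cells enter any comparison.

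In mitosis the kinase CDK1 with a B-type cyclin starts spindle assembly, and PLK1 and the Aurora kinases carry it on at centrosomes, centromeres and the midzone. Kinetochores, layered on chromatin that holds the histone variant CENP-A, attach chromosomes to microtubules, and the spindle checkpoint holds back the anaphase promoting complex until every chromosome is attached. Most of these genes are transcribed late in the cell cycle, from promoters on which the DREAM complex represses and the MuvB core with B-Myb and FOXM1 activates, often through a short element named the cell cycle genes homology region (CHR). In a bulk RNA library a lower level of such a gene can reflect fewer cycling cells or less RNA in each, and the 2 cannot be told apart.

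Library totals ran from 25572691 to 38373679 counts. TDP1 itself stood at 26.3 CPM (counts relative to library totals that were scaled by the trimmed mean of M-values) in untreated WT and 10.8 CPM in KO, a log2 fold change of -1.29 ± 0.11 (standard error, SE; adjusted p = 1.30e-05, edgeR quasi-likelihood test). Throughout, ± is the SE of a log2 fold change and the SD over 3 libraries of a CPM value. Keratins 7, 8, 18 and 19, EPCAM and CDH1 were present in every group at mean levels from 285 to 4604 CPM, whereas the lung adenocarcinoma markers NKX2-1 and NAPSA stayed at or below 1.62 CPM. With SFTPB these make 9 lung epithelial markers, of which 5 fell and 2 rose in DTC (33.3% and 34% of tested genes). Their log2 fold changes in DTC ran from -4.32 to 3.67. They summed to between 10795 and 11397 CPM in untreated WT and between 6294 and 7279 in DTC. In DTEC the sum was 9293 to 12163 CPM. Of 7 fibroblast markers COL1A1 alone was tested, and it went from 8.30 CPM in untreated WT to 55.7 in DTC, while DCN and LUM were at 0 in untreated WT and below 0.5 CPM in DTC. The 7 leukocyte markers summed to between 0.405 and 1.31 CPM in untreated WT, between 10.3 and 12.7 in DTC, between 2.53 and 3.35 in DTEC and between 0.737 and 1.69 in KO, with MPO at 0 throughout. The 5 endothelial markers summed to 58.5 to 61.4, 42.3 to 50.2, 122 to 142 and 75.8 to 77.2 CPM in the same order, nearly all from PECAM1 and CDH5. Mitochondrially encoded genes took 1.82% to 2.38% of counts in DTEC and 4.43% to 5.41% in DTC, beside 2.5% to 2.77% in untreated WT and 2.59% to 2.78% in KO. Their part in the results below was not tested.

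Libraries of a group differed by transcript length. In DTC replicate 1 the members with long transcripts stood higher, relative to the other DTC libraries, than those with short ones: across the 60 members the log2 ratio of that library to the other DTC libraries had a Spearman correlation with exon length of 0.61. The same figure was -0.60 for DTC replicate 2 and -0.49 for DTC replicate 3, which follow in part because each library is set against the others, and it was 0.50 for DTEC replicate 2 and between -0.39 and 0.38 for the other libraries. The members with the longest exons, among them MKI67, CENPF and ASPM, accordingly had DTC values that were highest in replicate 1. Fold changes between groups followed length too: over the 60 members their Spearman correlation with exon length was -0.31 in DTC and 0.09 in DTEC. Between the times it was 0.34. Over 16419 tested genes the figures were -0.11, 0.02 and 0.18. Longer members thus tended to fall more and regain more, and the part of length in the recovered shares and courses was not tested. Counts over all members are given without DTC replicate 1 as well.

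After 7 days of erlotinib the program was reduced almost as a block. Of the 60 genes 57 fell, 1 rose (DSN1) and 2 were not called (CENPK and CENPU), against 33.3% of all tested genes that fell and 34% that rose (edgeR quasi-likelihood test, Benjamini-Hochberg adjusted p under 0.05 over 17115 genes). The median log2 fold change was -1.66 over the 60 genes and 0.06 over all tested genes. In 57 of the 60 genes all 3 DTC libraries lay below all 3 untreated ones, which held for 33.8% of tested genes, and in 1 (DSN1) all 3 lay above, which held for 35.1%. An unadjusted p under 0.05 was met by 58 of the 60 genes and by 70.2% of tested genes. Summed over the 60 genes, the level was 8016 ± 247 CPM (SD, n = 3) in untreated WT and 2619 ± 163 CPM in DTC, or 32.7% of the untreated sum. Gene by gene the DTC mean ranged from 9.75% (PLK1) to 124% (DSN1) of the untreated mean, with a median of 31.6%, and 13 genes stood under 25%. Without DTC replicate 1 the counts were 57 that fell and 2 that rose, the second being CENPK (adjusted p = 0.0490, edgeR).

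At 28 days in the same dose the cells had regained part of the program. The summed level in DTEC was 4040 ± 125 CPM, 50.4% of untreated, and the DTEC libraries (3902 to 4148 CPM) lay above every DTC library (2478 to 2797 CPM) and below every untreated library (7802 to 8286 CPM). Compared directly with DTC, 45 of the 60 genes were higher, 7 were lower and 8 were not called, where 28.8% of tested genes were higher and 26.6% lower (edgeR). All 3 DTEC libraries lay above all 3 DTC libraries in 45 genes (29% of tested genes). The median log2 difference between DTEC and DTC was 0.70, against -0.01 over all tested genes. Leaving out DTC replicate 1 gave 46 higher and 8 lower, with a median of 0.65.

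No member was called higher than untreated at 28 days. Against untreated WT, 58 of the 60 genes were still lower in DTEC, 0 were higher and 2 were not called (CENPK and DSN1), where 26.3% of tested genes were lower and 26% higher (edgeR), and the median log2 fold change was -0.86 over the members and 0.02 over all tested genes. All 3 DTEC libraries lay below all 3 untreated ones in 58 genes (31.3% of tested genes) and above them in 0 (31.1%). The DTEC mean stood between 31.5% (MYBL2) and 100.2% (DSN1) of the untreated mean, with a median of 55.3%. It was under 50% for 22 genes, from 50% to under 75% for 32 genes and at least 75% for 6 genes.

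**Figure D1:**
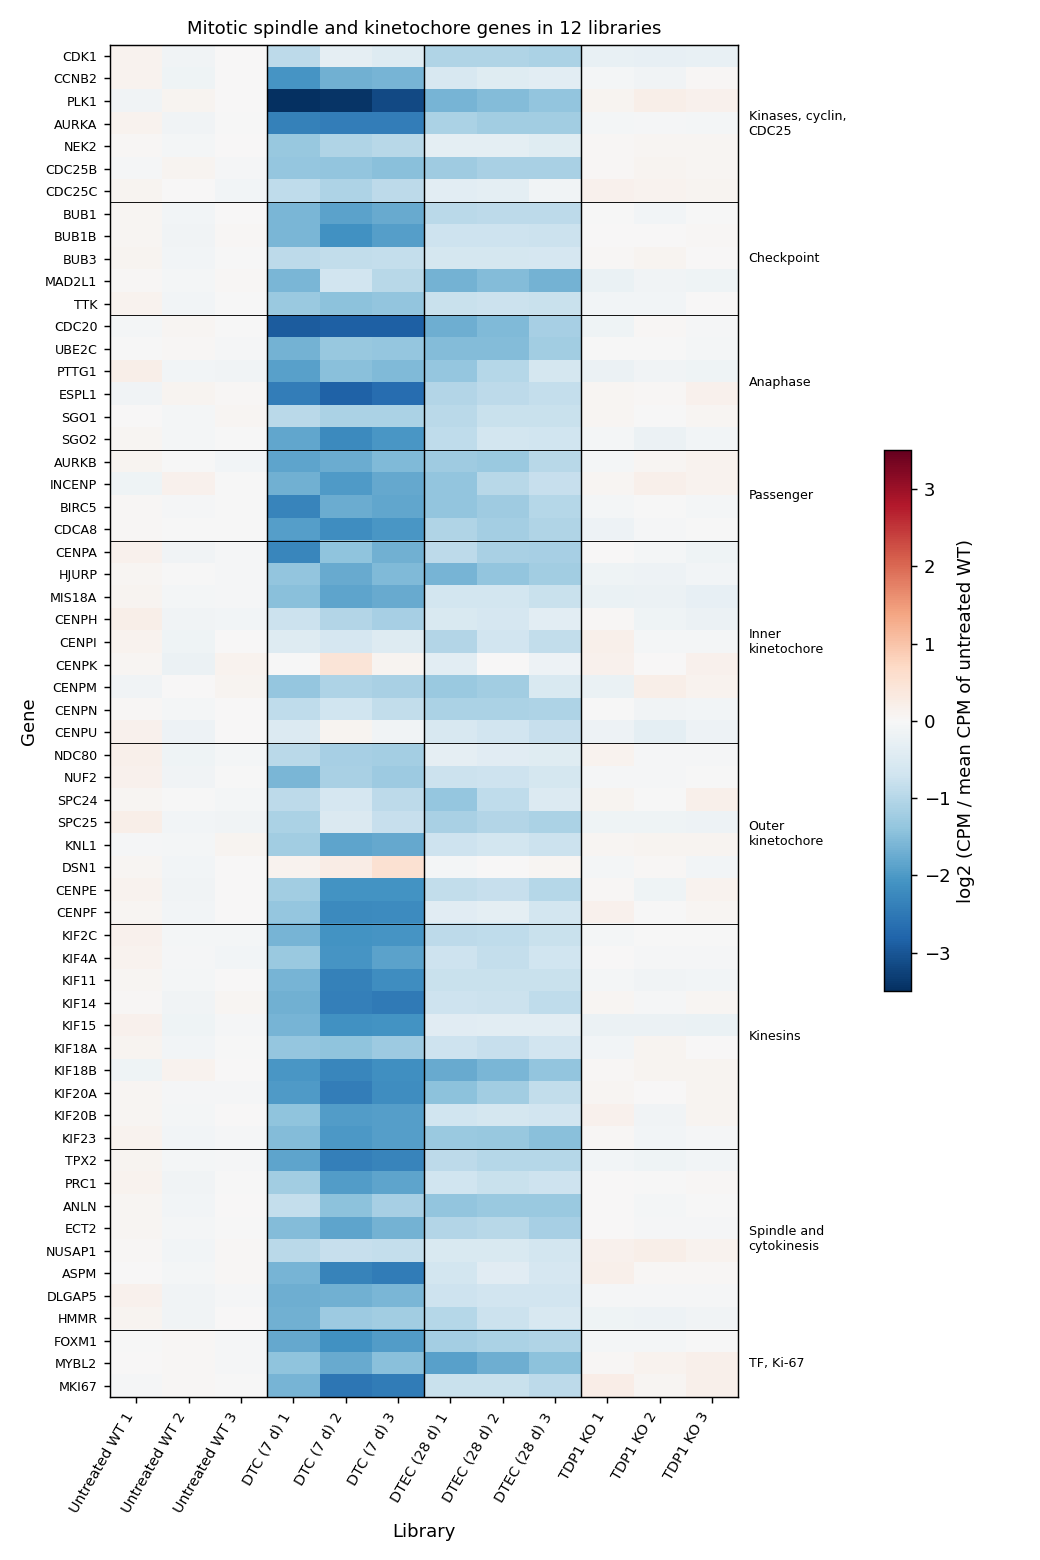
Level of each of the 60 genes in each of the 12 libraries, as the log2 ratio of its CPM to the mean of the 3 untreated WT libraries; columns are libraries by group, rows are genes by role, and blue is below and red above untreated. The DTC columns are darkest, the DTEC columns lie between them and untreated in most rows, and the KO columns stay near 0.

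How much came back can be put on 1 scale. For the 57 genes that fell, the recovered share was the log2 level in DTEC minus that in DTC, divided by the log2 level in untreated WT minus that in DTC. It is a description, since both parts use the same DTC libraries. Its median was 46.8%, its quartiles were 26.8% and 59.6%, and it ran from -101% (CDK1, which fell further) to 80.7% (KIF15). It was at least 50% in 23 genes, at least 75% only in KIF15 and CENPF, from 0 to under 25% in 5 genes and below 0 in 8 genes.

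The direct tests sort the 60 genes into 4 courses. In the first course, 45 genes fell by day 7, were higher at day 28 than at day 7 and were still below untreated, a course that 8.96% of tested genes met, and 21.1% met its first 2 conditions. In the next, 8 genes (UBE2C, SGO1, HJURP, CENPM, SPC24, SPC25, ANLN and MYBL2) fell and were not called between the 2 time points, as 11% of tested genes did. Another 4 genes (CDK1, MAD2L1, CENPI and CENPN) fell and were lower again at day 28, as 1.21% of tested genes did. The last 3 (CENPK, CENPU and DSN1) were not lower at day 7. Among all 5702 genes that fell by day 7, 63.3% were higher at day 28 than at day 7, 33.1% were not called between the times and 3.63% were lower still. Membership of a course was kept in all 19 alternative settings by 33 of the 45, 4 of the 8 (UBE2C, HJURP, CENPM and SPC24), 1 of the 4 (MAD2L1) and 1 of the 3 (CENPU). Without DTC replicate 1 the 4 courses held 46, 6, 5 and 3 genes. The comparisons with untreated WT share its 3 libraries, and each shares libraries with the direct comparison of the time points.

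**Figure D2:**
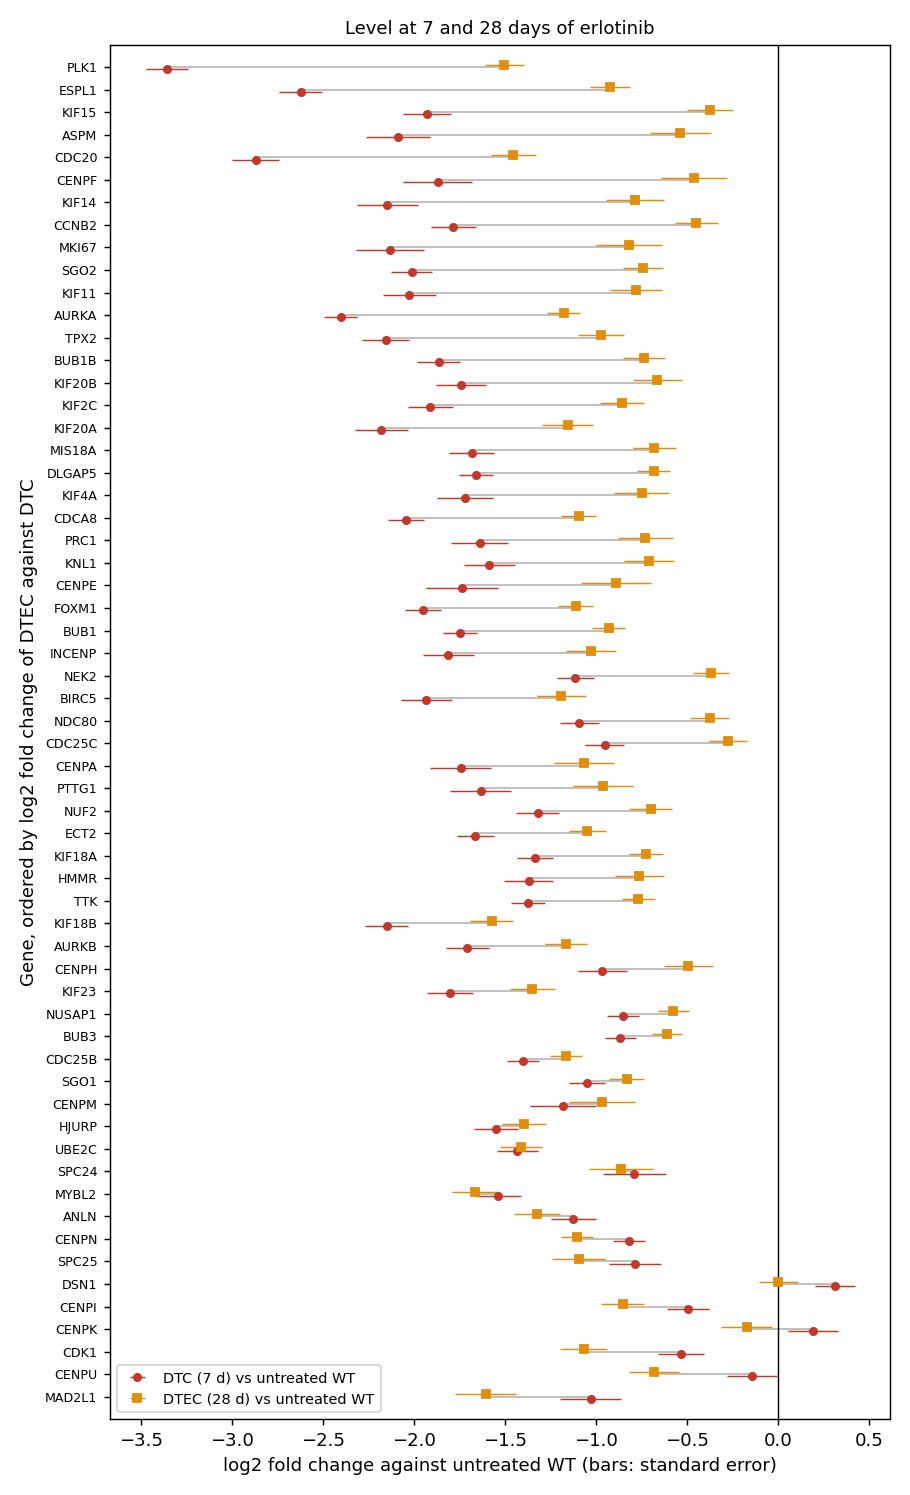
Log2 fold change against untreated WT of each gene in DTC (red circles, 7 days) and DTEC (orange squares, 28 days), with standard errors, ordered by the difference between the times. Orange lies to the right of red for most genes, from PLK1 at the top, and to the left for MAD2L1, CENPU and CDK1 at the bottom.

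Because these genes moved largely together, their promoters were read for the elements through which late cell cycle genes are known to be controlled. RefSeq promoters (GRCh38.p14, from 250 bases before a gene's start to 50 after) were matched for 49 of the 60 genes, in 60 windows of 300 bases. The genes with no match were AURKA, BUB3, TTK, UBE2C, BIRC5, MIS18A, CENPH, CENPM, KNL1, TPX2 and FOXM1. Each window was searched on both strands for the CHR (TTTGAA), for the CCAAT box (CCAAT) bound by NF-Y, and for an E2F-type site (TTCCCGC, the same with a different middle as TTCGCGC or as TTGCCGC, or else TTGGCGC). A variant spelling of the CHR (TTCGAA) was searched as well and is counted apart. The windows of 6 genes are shown 5′ to 3′ on the gene's strand, with every match in capitals (a match on the other strand appears as its reverse complement). PLK1 (chr16:23678639-23678938, plus strand), the gene that fell the most, CCNB2 (chr15:59104896-59105195, plus strand) and CENPF (chr1:214602945-214603244, plus strand) stand for genes that came partly back, CDK1 (chr10:60778228-60778527, plus strand; the one of its 2 windows with the most CHR matches) and MAD2L1 (chr4:120066799-120067098, minus strand) for genes that fell further, and MYBL2 (chr20:43666864-43667163, plus strand), which stayed low, for a window with none of these letters.
PLK1: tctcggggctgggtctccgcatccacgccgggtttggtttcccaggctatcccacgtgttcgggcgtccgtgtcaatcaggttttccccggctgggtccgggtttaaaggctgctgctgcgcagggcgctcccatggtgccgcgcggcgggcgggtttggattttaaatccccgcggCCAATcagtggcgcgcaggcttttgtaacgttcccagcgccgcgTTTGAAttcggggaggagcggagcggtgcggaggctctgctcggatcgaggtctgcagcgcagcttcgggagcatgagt
CCNB2: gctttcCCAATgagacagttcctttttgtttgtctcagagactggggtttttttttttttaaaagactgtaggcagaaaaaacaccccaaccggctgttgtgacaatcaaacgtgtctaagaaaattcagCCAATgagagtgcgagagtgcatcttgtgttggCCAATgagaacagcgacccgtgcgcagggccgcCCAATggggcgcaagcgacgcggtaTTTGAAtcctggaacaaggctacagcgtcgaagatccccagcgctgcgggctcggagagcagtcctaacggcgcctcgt
CENPF: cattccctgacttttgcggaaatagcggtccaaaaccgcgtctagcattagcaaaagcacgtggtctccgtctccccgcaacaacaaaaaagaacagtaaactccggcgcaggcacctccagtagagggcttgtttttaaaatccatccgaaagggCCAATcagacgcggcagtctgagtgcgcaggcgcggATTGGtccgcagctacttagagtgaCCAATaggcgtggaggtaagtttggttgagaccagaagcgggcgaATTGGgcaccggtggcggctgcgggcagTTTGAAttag
CDK1: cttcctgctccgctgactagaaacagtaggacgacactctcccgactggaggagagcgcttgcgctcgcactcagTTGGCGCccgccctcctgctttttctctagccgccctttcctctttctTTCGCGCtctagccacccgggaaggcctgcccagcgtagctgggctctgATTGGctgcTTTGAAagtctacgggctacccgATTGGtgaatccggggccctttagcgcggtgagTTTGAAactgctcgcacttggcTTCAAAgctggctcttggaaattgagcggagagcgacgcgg
MAD2L1: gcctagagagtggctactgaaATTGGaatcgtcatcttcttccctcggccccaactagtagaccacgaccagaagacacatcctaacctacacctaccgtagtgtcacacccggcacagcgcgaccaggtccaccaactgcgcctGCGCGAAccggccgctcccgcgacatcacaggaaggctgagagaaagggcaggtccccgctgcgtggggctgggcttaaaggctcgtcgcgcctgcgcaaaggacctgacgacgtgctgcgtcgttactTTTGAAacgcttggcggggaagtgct
MYBL2: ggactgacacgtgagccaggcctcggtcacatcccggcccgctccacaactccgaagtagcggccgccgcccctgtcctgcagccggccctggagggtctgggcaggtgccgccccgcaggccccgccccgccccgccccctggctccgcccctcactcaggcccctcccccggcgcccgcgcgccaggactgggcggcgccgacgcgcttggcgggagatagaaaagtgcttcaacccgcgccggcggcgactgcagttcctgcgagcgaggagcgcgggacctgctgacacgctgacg

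The CHR letters stood in 36 of the 60 member windows (60%, or 33 of 49 genes), against 15.2% of all 35116 RefSeq windows of the same length. CCAAT stood in 75% of member windows and 34.6% of all windows, and both elements in 1 window in 50% and 5.90%. Of the 48 CHR matches in member windows 38 (79.2%) began within 100 bases before the start or after it, as in PLK1, CCNB2 and MAD2L1 above, against 41.4% of the 6238 matches in all windows. E2F-type letters stood in 31.7% of member windows and 13.0% of all windows. By course, CHR letters were present in 27 of 36 matched genes that came partly back, 3 of 6 that stayed low, 3 of 4 that fell further and 0 of 3 that were not lower at day 7. E2F-type letters were present in 11 of 36, 2 of 6, 3 of 4 and 1 of 3. The CHR variant stood in 6.67% of member windows and 1.45% of all windows. By course it was present in 3 of 36, 1 of 6 (SGO1), 0 of 4 and 0 of 3. A match of letters is a description of the window and no evidence that a factor binds there. Nor is a window without a match, such as that of MYBL2, evidence that an element is absent, since few exact spellings were searched.

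The mitosis-entry kinases, their cyclin and the CDC25 phosphatases gave the deepest single fall and the clearest exception. All 7 genes fell by day 7 (33.3% of tested genes). At day 28 6 were higher than at day 7 (28.8%) and 1, CDK1, was lower (26.6%). PLK1 (ENSG00000166851, chr16:23677656-23690367, plus strand), which works at centrosomes, kinetochores and the midzone, was read at 298, 348 and 329.5 CPM in untreated WT, 29.1, 29.9 and 36.1 in DTC, 106, 114 and 124 in DTEC and 351, 376 and 359 in KO. The 3 DTC libraries were the lowest and did not overlap any other group, and the DTEC libraries lay between DTC and untreated. Its log2 fold change against untreated WT was -3.36 ± 0.12 in DTC (adjusted p = 4.49e-11, edgeR) and -1.50 ± 0.11 in DTEC (adjusted p = 9.34e-08). The DTEC mean was 35.3% of untreated, although the gain over DTC, 1.85 ± 0.11 (adjusted p = 1.11e-08), was the largest of the 60.

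CDK1 (ENSG00000170312, chr10:60778331-60794852, plus strand), the kinase that drives entry into mitosis, took another course, at 256, 216 and 236 CPM in untreated WT, 126, 190.4 and 173 in DTC, 113, 115 and 109.9 in DTEC and 195, 193 and 197 in KO. Its DTC libraries lay below untreated and its DTEC libraries lay lower still, with no overlap. The change was -0.53 ± 0.13 in DTC (adjusted p = 0.00201, edgeR), -1.07 ± 0.13 in DTEC (adjusted p = 1.05e-05) and -0.54 ± 0.13 between them (adjusted p = 0.00274). With libraries scaled to their totals alone the DTC value was -0.18 (adjusted p = 0.232) and by upper quartile -0.24 (adjusted p = 0.123), so the fall at day 7 depends on the scaling. CCNB2 (ENSG00000157456, chr15:59105078-59125045, plus strand), cyclin B2, a partner of CDK1, was read at 72.6, 60.8 and 67.3 CPM in untreated WT, 15.9, 20.8 and 21.6 in DTC, 45.4, 49.9 and 51.7 in DTEC and 64.4, 61.3 and 69.2 in KO. DTC was lowest and DTEC lay just below untreated, with no overlap among the wild-type groups. It fell by 1.78 ± 0.12 on the log2 scale in DTC (adjusted p = 1.63e-08, edgeR), was still lower in DTEC at -0.45 ± 0.12 (adjusted p = 0.00559), and had a recovered share of 74.8%. AURKA, the centrosomal Aurora kinase, had 18.9% of its untreated mean in DTC and 44.2% in DTEC. The centrosome kinase NEK2 had 46.2% and 77.4%, CDC25C 51.7% and 82.7%, and CDC25B 37.9% and 44.6%. The phosphatases CDC25B and CDC25C remove inhibitory phosphates from CDK1, and of the 7 genes CDC25C had the highest share of its untreated level in DTEC. Both rest on calls near the threshold: that CDC25B was higher in DTEC than in DTC (0.24 ± 0.09, adjusted p = 0.0299, edgeR) was kept in 4 of the 19 alternative settings, and that CDC25C was lower in DTEC than in untreated WT (-0.27 ± 0.10, adjusted p = 0.0402) in 3.

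**Figure D3:**
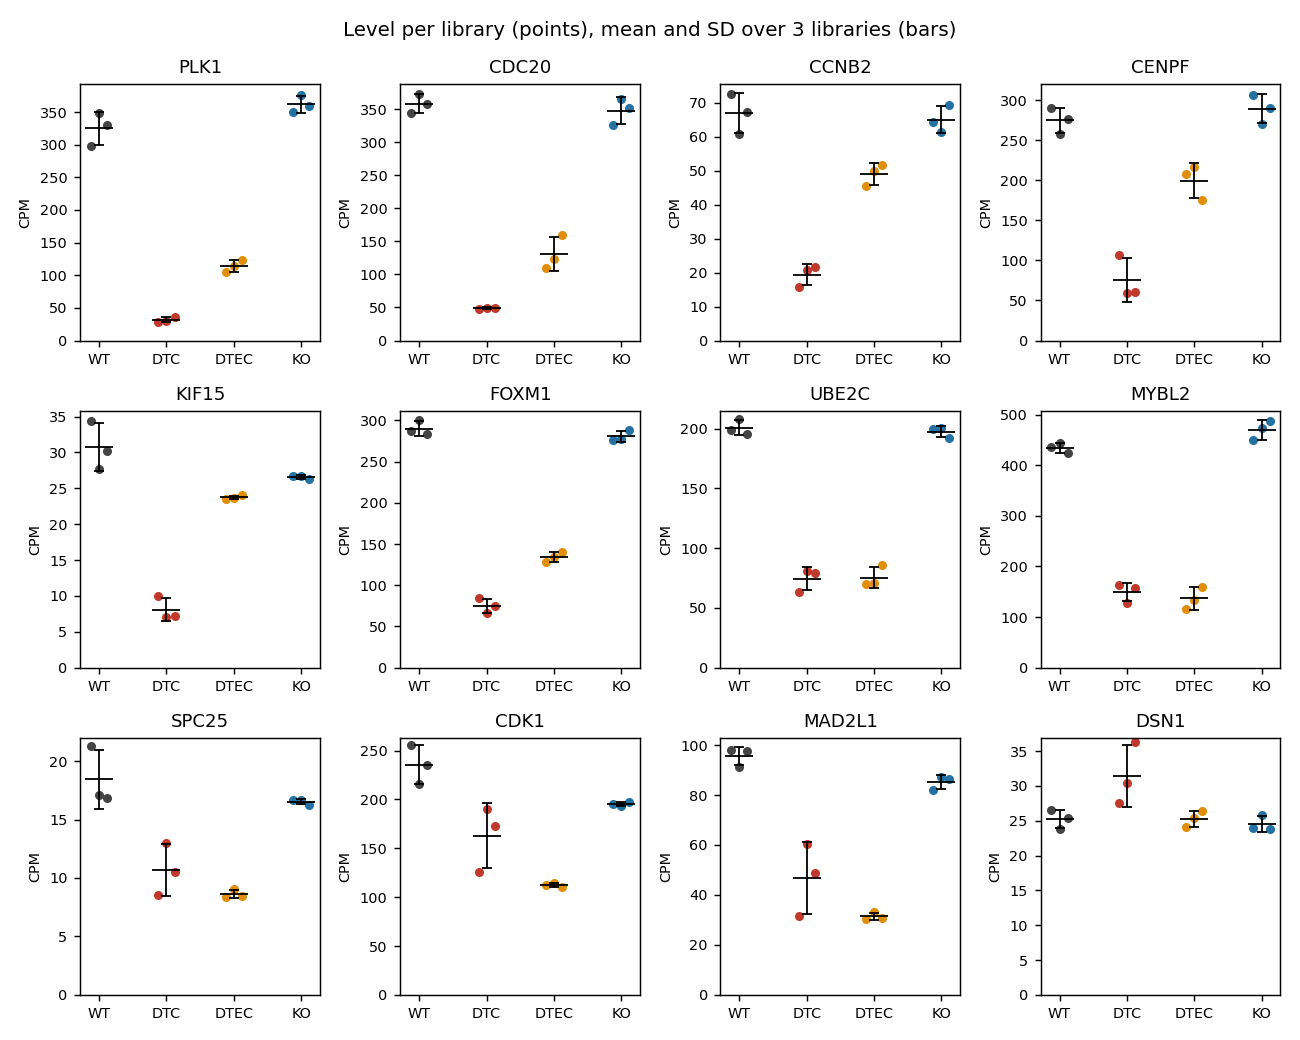
CPM of 12 genes in each library (points), with the mean and SD of the 3 libraries of each group (bars); WT is untreated wild type. PLK1, CDC20, CCNB2, CENPF, KIF15 and FOXM1 rise from DTC to DTEC, UBE2C, MYBL2 and SPC25 stay low, CDK1 and MAD2L1 are lowest in DTEC, and DSN1 is highest in DTC.

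All 5 spindle checkpoint genes fell by day 7 (33.3% of tested genes). At day 28 4 were higher than at day 7 (28.8%) and MAD2L1 was lower (26.6%). BUB1B (ENSG00000156970, chr15:40161023-40221136, plus strand), which encodes the checkpoint protein BubR1, was read at 94.4, 82.9 and 92 CPM in untreated WT, 29.6, 20.8 and 23.7 in DTC, 54.7, 54 and 53 in DTEC and 90.6, 90.2 and 91.8 in KO. The 3 wild-type groups did not overlap, and KO lay within the untreated range. Its log2 fold change was -1.86 ± 0.12 in DTC and -0.74 ± 0.11 in DTEC (adjusted p = 7.48e-09 and 9.82e-05, edgeR), with a recovered share of 60.5%. MAD2L1 (ENSG00000164109, chr4:120055608-120067074, minus strand), whose product MAD2 binds and blocks CDC20, was read at 97.8, 91.3 and 97.7 CPM in untreated WT, 31.5, 60.3 and 48.6 in DTC, 30.5, 33.1 and 30.6 in DTEC and 82, 87.1 and 86.5 in KO. Its DTC libraries were far apart, and replicate 1 lay within the DTEC range while the other two lay above it. The change was -1.03 ± 0.17 in DTC (adjusted p = 7.89e-05, edgeR), -1.61 ± 0.17 in DTEC (adjusted p = 3.17e-06) and -0.58 ± 0.17 between them (adjusted p = 0.00926). BUB1 and TTK, a kinase that starts checkpoint signalling, stood at 29.8% and 38.6% of untreated in DTC and at 52.5% and 58.7% in DTEC. BUB3, at 54.8% and 65.5%, moved least in DTC, and its call between the times was kept in 11 of the 19 alternative settings.

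Genes of the anaphase promoting complex's partners and of sister chromatid cohesion fell in 6 of 6 cases by day 7 (33.3% of tested genes). At day 28 4 of the 6 were higher than at day 7 (28.8%), while UBE2C and SGO1 were not called. CDC20 (ENSG00000117399, chr1:43358955-43363203, plus strand), the activator of that complex and the target of the checkpoint, was read at 345, 373 and 358 CPM in untreated WT, 47.5, 49.9 and 49.8 in DTC, 109.7, 123 and 160.0 in DTEC and 326, 366 and 352 in KO. DTC libraries were tightly grouped and lowest, DTEC libraries were spread out but all above DTC and below untreated. Its change was -2.87 ± 0.13 in DTC and -1.45 ± 0.12 in DTEC (adjusted p = 3.50e-10 and 3.67e-07, edgeR), which left 36.5% of the untreated mean. ESPL1 (ENSG00000135476, chr12:53268299-53293643, plus strand) encodes separase, the protease that opens cohesin, and was read at 97.2, 114 and 109 CPM in untreated WT, 19.9, 15.1 and 16.9 in DTC, 52.3, 56.4 and 60.2 in DTEC and 112, 109 and 119 in KO. The wild-type groups did not overlap. It fell by 2.62 ± 0.12 in DTC (adjusted p = 3.34e-10, edgeR), the third deepest fall of the 60, and regained 1.70 ± 0.11 by day 28 (adjusted p = 3.57e-08).

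UBE2C (ENSG00000175063, chr20:45812576-45816957, plus strand), the ubiquitin-conjugating enzyme of the anaphase promoting complex, was read at 199, 208 and 196 CPM in untreated WT, 63.2, 80.7 and 79.1 in DTC, 69.7, 70.5 and 86 in DTEC and 199.5, 201 and 192 in KO. DTC and DTEC overlapped, and both lay below untreated and KO. Its change was -1.43 ± 0.11 in DTC and -1.41 ± 0.11 in DTEC (adjusted p = 6.17e-08 and 2.40e-07, edgeR), and the difference between the times was 0.02 ± 0.11 (adjusted p = 0.892). The sign of that small difference turned in 7 of the 19 alternative settings, which included each change of scaling. Securin (PTTG1) had 32.2% of untreated in DTC and 51.3% in DTEC, and the shugoshins SGO1 and SGO2, guards of centromeric cohesin, ended at 56.2% and 59.8% after 48.3% and 24.8% in DTC.

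The chromosomal passenger complex, which corrects faulty attachments, behaved evenly. By day 7 all 4 subunits fell (33.3% of tested genes), and all 4 were higher at day 28 than at day 7 (28.8%). At day 28 all 4 were still lower than untreated (26.3%). AURKB (ENSG00000178999, chr17:8204733-8210600, minus strand), its kinase, was read at 63.3, 59.3 and 55.4 CPM in untreated WT, 16.5, 17.7 and 20.3 in DTC, 25.2, 24.1 and 30.2 in DTEC and 56.4, 62 and 65.2 in KO. Each DTEC library lay above each DTC library and below each untreated one. Its change was -1.71 ± 0.12 in DTC and -1.16 ± 0.12 in DTEC (adjusted p = 1.61e-08 and 1.70e-06, edgeR), a recovered share of 31.9%, the lowest of the complex. CDCA8 (ENSG00000134690, chr1:37692418-37709719, plus strand), borealin, was read at 118, 112 and 114 CPM in untreated WT, 30.2, 25.3 and 27.8 in DTC, 55.1, 50.5 and 55.2 in DTEC and 101, 111 and 114 in KO, again with no overlap among the wild-type groups. It fell by 2.04 ± 0.10 in DTC and stood at -1.09 ± 0.09 in DTEC (adjusted p = 5.85e-10 and 4.82e-07, edgeR), the highest recovered share of the complex at 46.4%. The scaffold INCENP and survivin (BIRC5) ended at 49% and 43.8% of untreated.

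Centromeric chromatin and the inner kinetochore moved in both directions after day 7. Of 9 genes 7 fell by day 7 (33.3% of tested genes). At day 28 3 were higher than at day 7 (CENPA, MIS18A and CENPH) and 4 were lower (CENPI, CENPK, CENPN and CENPU). The other 2 were not called (HJURP and CENPM), beside 28.8% of tested genes higher and 26.6% lower. The share of 3 in 9 that were higher lies near that background. The median recovered share was 18.2% over the 7 that fell, the lowest of the 9 role groups, and that difference between role groups was not tested. MIS18A (ENSG00000159055, chr21:32268219-32279069, minus strand), part of the complex that licenses CENP-A loading, was read at 17.2, 15.3 and 15.5 CPM in untreated WT, 5.85, 4.44 and 4.66 in DTC, 10.3, 10.3 and 9.37 in DTEC and 13.7, 13.9 and 13 in KO. DTC was lowest, DTEC lay between, and all KO libraries lay below all untreated ones. Its change was -1.68 ± 0.12 in DTC and -0.68 ± 0.12 in DTEC (adjusted p = 3.10e-08 and 2.73e-04, edgeR), a recovered share of 59.6%. The CENP-A chaperone HJURP, by contrast, stood at 34.2% of untreated in DTC and 38% in DTEC, and CENPA itself at 29.8% and 47.7%.

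Within this role group, the genes that were lower at day 28 than at day 7 belong to the constitutive centromere network, but not all of that network followed. CENPH, also of the network, was higher between the times (0.47 ± 0.14, adjusted p = 0.00861, edgeR). CENPM, another of its subunits, was not called (0.22 ± 0.18, adjusted p = 0.340). CENPI (ENSG00000102384, chrX:101098218-101163681, plus strand) was read at 39.3, 32.7 and 36.7 CPM in untreated WT, 26.6, 24.1 and 26.4 in DTC, 17.8, 22.6 and 19.8 in DTEC and 40.9, 34.9 and 34.3 in KO. DTEC was lowest, DTC lay between it and untreated, and the 3 groups did not overlap. Its change was -0.50 ± 0.12 in DTC and -0.85 ± 0.12 in DTEC (adjusted p = 0.00162 and 3.17e-05, edgeR), but the DTC call was lost with library totals alone (-0.14, adjusted p = 0.300) and with upper-quartile scaling (-0.21, adjusted p = 0.125). CENPK (ENSG00000123219, chr5:65517766-65563171, minus strand), which sits in one subcomplex with CENPI, was read at 20.6, 17.3 and 21.4 CPM in untreated WT, 19.7, 27 and 21 in DTC, 15.2, 20.1 and 17.5 in DTEC and 22.1, 20 and 22 in KO. All 4 groups overlapped. Its change was 0.19 ± 0.14 in DTC and -0.17 ± 0.14 in DTEC (adjusted p = 0.236 and 0.324, edgeR), and only the difference between the times was called, at -0.36 ± 0.14 (adjusted p = 0.0396). That call was lost in 5 of the 19 alternative settings.

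CENPU (ENSG00000151725, chr4:184694618-184734133, minus strand), a docking site for PLK1 at the kinetochore, was read at 40.3, 32.2 and 37.1 CPM in untreated WT, 26.3, 39.3 and 33.7 in DTC, 24.6, 22.8 and 20.9 in DTEC and 32.6, 28.7 and 32.1 in KO. DTC overlapped untreated, and DTEC lay below both. Its change was -0.14 ± 0.14 in DTC (adjusted p = 0.380, edgeR), -0.68 ± 0.14 in DTEC (adjusted p = 9.26e-04) and -0.54 ± 0.14 between the times (adjusted p = 0.00451). Its course thus ran late, with the only called fall between day 7 and day 28. CENPN, which reads CENP-A nucleosomes, fell to 56.8% of untreated in DTC and 46.6% in DTEC. CENPH ended at 71%, with its call between the times kept in 15 of the 19 alternative settings, and CENPM at 51%.

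In the outer kinetochore and corona 7 of 8 genes fell by day 7 and DSN1 rose (33.3% and 34% of tested genes). At day 28 5 were higher than at day 7 (28.8%), DSN1 was lower (26.6%), and SPC24 and SPC25 were not called. CENPF (ENSG00000117724, chr1:214603195-214664588, plus strand), a large corona protein, was read at 290.0, 258 and 277 CPM in untreated WT, 107, 59.1 and 60.2 in DTC, 208, 216 and 175 in DTEC and 307, 270.4 and 291 in KO. DTC replicate 1 lay well above the other two DTC libraries, and DTEC lay between DTC and untreated without overlap. Its change was -1.87 ± 0.19 in DTC (adjusted p = 9.24e-07, edgeR) and -0.46 ± 0.18 in DTEC (adjusted p = 0.0468), and its recovered share was 75.3%. The DTEC call sits at the edge: it was lost in 12 of the 19 alternative settings.

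The 4 subunits of the NDC80 complex, the rod that grips microtubules, fell by day 7, and only NDC80 and NUF2 were called higher between the times. NDC80 and NUF2, which form the microtubule-binding end, rose between the times by 0.72 ± 0.11 and 0.62 ± 0.12 (adjusted p = 6.38e-05 and 5.59e-04, edgeR), to 77.1% and 61.5% of untreated. SPC24 and SPC25, which form the end that meets the inner kinetochore, were not called between the times, at -0.07 ± 0.18 and -0.31 ± 0.15 (adjusted p = 0.747 and 0.0850). They stood at 54.9% and 46.8% of untreated in DTEC. In DTC SPC24 and NUF2 had stood at 57.8% and 40.0%, so their shares lay nearer each other at day 28. SPC25 (ENSG00000152253, chr2:168834132-168913371, minus strand) was read at 21.3, 17.1 and 16.9 CPM in untreated WT, 8.52, 13 and 10.5 in DTC, 8.37, 9.01 and 8.49 in DTEC and 16.7, 16.6 and 16.3 in KO. DTC and DTEC overlapped, and both lay below untreated. Its change was -0.79 ± 0.14 in DTC and -1.10 ± 0.15 in DTEC (adjusted p = 2.27e-04 and 2.38e-05, edgeR). Only 1 of its 12 values was whole, so its reads were shared with other features and its level is less certain.

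DSN1 (ENSG00000149636, chr20:36751791-36773818, minus strand), of the MIS12 complex that bridges inner and outer kinetochore, was read at 26.5, 23.8 and 25.4 CPM in untreated WT, 27.5, 30.4 and 36.2 in DTC, 24.1, 25.4 and 26.4 in DTEC and 23.9, 25.9 and 23.8 in KO. All DTC libraries lay above all untreated ones, and DTEC lay within the untreated range. Its change was 0.31 ± 0.11 in DTC (adjusted p = 0.0195, edgeR) and 0.00 ± 0.11 in DTEC (adjusted p = 0.989), with -0.31 ± 0.11 between the times (adjusted p = 0.0251). The rise was not called in 4 of the 19 alternative settings. The scaffold KNL1 and the motor CENPE stood at 33.3% and 30.1% of untreated in DTC, and at 61.3% and 54% in DTEC.

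The mitotic kinesins, motors and microtubule depolymerases of the spindle, moved as 1 group. By day 7 10 of 10 fell (33.3% of tested genes), and 10 of 10 were higher at day 28 than at day 7 (28.8%). At day 28 10 of 10 were still lower than untreated (26.3%). Their median share of the untreated level was 26.4% in DTC and 58.2% in DTEC. KIF15 (ENSG00000163808, chr3:44761717-44873376, plus strand), a plus-end motor that can stand in for KIF11 in keeping spindle poles apart, was read at 34.4, 27.8 and 30.2 CPM in untreated WT, 9.97, 7.06 and 7.24 in DTC, 23.6, 23.7 and 24 in DTEC and 26.7, 26.7 and 26.2 in KO. The DTEC libraries agreed closely with one another and lay above DTC and below untreated, and the KO libraries also lay below untreated. Its change was -1.93 ± 0.13 in DTC and -0.37 ± 0.13 in DTEC (adjusted p = 1.53e-08 and 0.0219, edgeR), the highest recovered share of all at 80.7%. The DTEC call was lost in 6 of the 19 alternative settings. KIF23 (ENSG00000137807, chr15:69414246-69448427, plus strand), a motor of the central spindle, was read at 182, 155 and 163 CPM in untreated WT, 57.8, 41.4 and 44.1 in DTC, 68.2, 66.8 and 60.9 in DTEC and 170.0, 157 and 160.4 in KO. The 3 wild-type groups did not overlap. Its change was -1.80 ± 0.12 in DTC and -1.35 ± 0.12 in DTEC (adjusted p = 1.60e-08 and 7.38e-07, edgeR), the lowest recovered share of the kinesins at 25.1%. Its gain between the times, 0.45 ± 0.12 (adjusted p = 0.00594), was not called in 3 of the 19 alternative settings. KIF11, the target of inhibitors such as monastrol, ended at 58.3% of untreated, KIF14 at 58.1%, KIF2C at 55.1% and KIF18B at 33.6%.

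Among spindle assembly and cytokinesis genes all 8 fell by day 7 (33.3% of tested genes). At day 28 7 were higher than at day 7 (28.8%) and ANLN was not called. ASPM (ENSG00000066279, chr1:197084128-197146694, minus strand), a spindle pole protein, was read at 147, 139 and 150.3 CPM in untreated WT, 47.3, 28.5 and 26.8 in DTC, 92.7, 111 and 96.1 in DTEC and 165, 149 and 151 in KO. DTC replicate 1 was the highest of its group, and the DTEC libraries lay between DTC and untreated without overlap. Its change was -2.09 ± 0.17 in DTC and -0.54 ± 0.17 in DTEC (adjusted p = 1.26e-07 and 0.0149, edgeR), with a recovered share of 74.2%, and the DTEC call was lost in 4 of the 19 alternative settings. ANLN (ENSG00000011426, chr7:36389806-36453791, plus strand), anillin, a scaffold of the contractile ring, had the highest CPM of the 60 in untreated cells and was read at 534, 479 and 511 CPM in untreated WT, 282, 189 and 227 in DTC, 194, 206 and 208 in DTEC and 516, 482 and 508 in KO. DTC and DTEC overlapped, and both lay below untreated. Its change was -1.13 ± 0.12 in DTC and -1.32 ± 0.13 in DTEC (adjusted p = 1.88e-06 and 1.08e-06, edgeR). TPX2, an activator of AURKA, had 22.4% of untreated in DTC and 50.9% in DTEC, and PRC1, which bundles the midzone, 32.1% and 60.3%. The RhoA activator ECT2 ended at 48.4%, DLGAP5 at 62.3%, HMMR at 59% and NUSAP1 at 67.1%, whose call between the times was kept in 14 of the 19 alternative settings. No PRC1 or ECT2 value in the 12 libraries was a whole number, so their reads were shared with other features when the counts were estimated. The same limit holds for SPC25, BIRC5, SGO2 and KIF4A, with 1 whole value each, and KNL1, with 2. All 12 values were whole in 39 of the 60 members.

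The 2 transcription factors of the list parted after day 7. FOXM1 (ENSG00000111206, chr12:2857681-2877155, minus strand), an activator of late cell cycle genes, was read at 287, 299.9 and 283 CPM in untreated WT, 84.3, 66.6 and 74.2 in DTC, 128, 134 and 140.0 in DTEC and 276, 278 and 288 in KO. DTEC lay above DTC and below untreated without overlap. Its change was -1.95 ± 0.10 in DTC and -1.11 ± 0.10 in DTEC (adjusted p = 9.70e-10 and 5.03e-07, edgeR), and 0.84 ± 0.10 between the times (adjusted p = 6.23e-06). MYBL2 (ENSG00000101057, chr20:43667019-43716496, plus strand), which encodes B-Myb, was read at 435, 444 and 423 CPM in untreated WT, 162, 128 and 158 in DTC, 117, 134 and 160.1 in DTEC and 449, 473 and 487 in KO. DTC and DTEC overlapped far below untreated, and all KO libraries lay above untreated. Its change was -1.54 ± 0.12 in DTC, -1.67 ± 0.12 in DTEC (adjusted p = 7.18e-08 and 1.29e-07, edgeR) and -0.13 ± 0.12 between the times (adjusted p = 0.393), which left it with the lowest share of its untreated level in DTEC, 31.5%. MKI67 (ENSG00000148773, chr10:128096659-128126385, minus strand), the Ki-67 antigen used to count cycling cells, was read at 354, 374 and 364 CPM in untreated WT, 119, 63.4 and 66.9 in DTC, 213, 212 and 192 in DTEC and 428, 383 and 412 in KO. DTC replicate 1 stood above the other two DTC libraries, and DTEC lay between DTC and untreated. Its change was -2.13 ± 0.19 in DTC and -0.82 ± 0.18 in DTEC (adjusted p = 2.44e-07 and 0.00177, edgeR), with 56.6% of the untreated mean in DTEC.

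The balance between partner genes can be read within a library, where depth and scaling cancel. The 6 pairs were chosen after their values were seen and are described without a test, and since genes differ in length only the change of a ratio across groups is read. That change is not free of length either, since fold changes between groups followed exon length. The part of length in the ratios was not tested. The log2 ratio of CDK1 to CCNB2 was 1.82 ± 0.01 (SD, n = 3) in untreated WT, 3.06 ± 0.12 in DTC and 1.20 ± 0.11 in DTEC, so the kinase gained on the cyclin at day 7 and lost to it at day 28. The ratio of MAD2L1 to BUB1B was 0.09 ± 0.04, 0.89 ± 0.73 and -0.78 ± 0.07 in untreated WT, DTC and DTEC, with DTC replicate 1 at 0.09 and replicates 2 and 3 at 1.54 and 1.04. The ratio of UBE2C to CDC20 was -0.84 ± 0.04, 0.59 ± 0.15 and -0.78 ± 0.12, and in DTEC its libraries overlapped the untreated ones. The ratio of MYBL2 to FOXM1 was 0.58 ± 0.02, 0.99 ± 0.08 and 0.02 ± 0.17. The ratio of SPC25 to NDC80 was -1.92 ± 0.05, -1.63 ± 0.41 and -2.64 ± 0.09, and that of SPC24 to NUF2 -0.90 ± 0.11, -0.37 ± 0.16 and -1.11 ± 0.37. In 4 of the 6 pairs (CDK1 to CCNB2, MYBL2 to FOXM1, MAD2L1 to BUB1B and SPC25 to NDC80) the DTEC libraries lay below all DTC and all untreated libraries. In the KO libraries the ratio of CDK1 to CCNB2 was 1.60, 1.65 and 1.51, below all untreated ones. Those of MAD2L1 to BUB1B and SPC25 to NDC80 also lay below untreated in KO. That of MYBL2 to FOXM1 lay above, at 0.70, 0.77 and 0.76. UBE2C to CDC20 and SPC24 to NUF2 overlapped untreated.

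**Figure D4:**
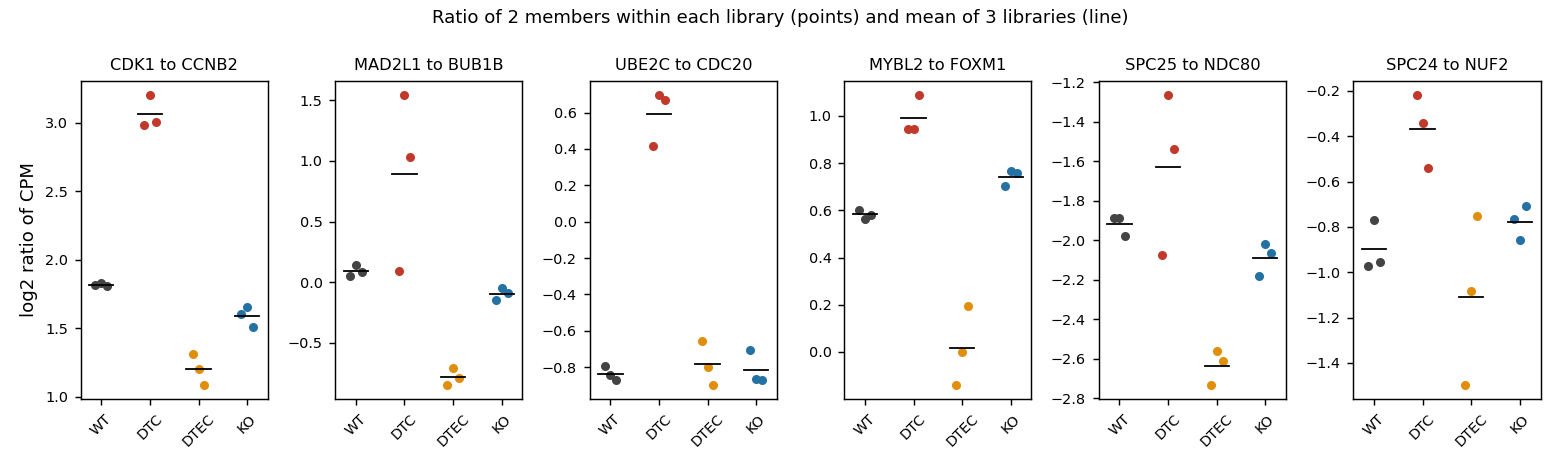
Log2 ratio of the CPM of 6 pairs of genes in each library (points), with the mean of the 3 libraries of each group (line); each panel has its own axis, which does not start at 0. The ratio rises in DTC in most panels and falls in DTEC, to near or below the untreated value, and for MAD2L1 to BUB1B and SPC25 to NDC80 DTC replicate 1 lies near untreated.

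In the untreated TDP1 knockout line no change of a member was called, with standard errors of the log2 fold change from 0.083 to 0.19. The summed level was 8003 ± 78.1 CPM in KO and 8016 ± 247 CPM in untreated WT. No member was called (edgeR; 4.31% of tested genes were, 1.55% lower and 2.76% higher), none had an unadjusted p under 0.05 (16.6% of tested genes did), and DESeq2's Wald test called 0 too. The log2 fold changes ran from -0.27 ± 0.13 (CDK1) to 0.16 ± 0.18 (MKI67), with a smallest adjusted p of 0.302. All 3 KO libraries lay below all untreated ones in 9 members and above in 5, against 19.9% and 15.8% of tested genes. The 9 were CDK1, MAD2L1, PTTG1, SGO2, HJURP, MIS18A, SPC25, KIF15 and TPX2, and the 5 were PLK1, CDC25C, NUSAP1, MYBL2 and MKI67. Fitted on the 6 untreated libraries alone, edgeR called 3 members: CDK1 at -0.25 (adjusted p = 0.0136), MKI67 at 0.19 (adjusted p = 0.0329) and NUSAP1 at 0.19 (adjusted p = 0.0363).

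Other genes of mitosis, 55 of them outside the list (cyclins A and B1, condensin, further kinetochore subunits and the like), were read beside the members. By day 7 49 of the 55 fell and 1 rose, against 33.3% and 34% of tested genes, with a median of -1.44. At day 28 47 were below untreated (26.3% of tested genes), with a median of -0.82. Between the times 34 were higher and 5 lower (28.8% and 26.6% of tested genes), and in KO 0 were called (4.31% of tested genes). In KO 5 of the 55 had an unadjusted p under 0.05 (16.6% of tested genes, edgeR). ZW10 and SKA1 lay near the threshold there, at -0.49 ± 0.13 and -0.48 ± 0.13 (adjusted p = 0.0523 and 0.0544, edgeR). FAM83D, which brings a kinase to the spindle, fell the most, from 157 ± 8.14 CPM to 27.3 ± 3.49 in DTC and 54.1 ± 6.03 in DTEC (-2.53 ± 0.12 in DTC, adjusted p = 4.60e-10, edgeR). ARHGAP11A, a RhoA regulator of cytokinesis, went from 168 ± 8.63 CPM to 33.4 ± 5.06 and 71.1 ± 3.67, and none of its values was whole, so its reads are shared with a near-identical copy or another feature. CENPT, a DNA-binding arm of the kinetochore, was the 1 gene that rose, from 19.9 ± 1.85 CPM to 51.2 ± 11.7 in DTC (1.37 ± 0.15, adjusted p = 1.88e-06, edgeR), and stood at 17.3 ± 1.47 in DTEC. CENPQ, a partner of CENPU, was at 12.1 ± 1.70, 15.4 ± 3.85 and 7.50 ± 0.479 CPM, with 0.35 ± 0.16 in DTC (adjusted p = 0.0690) and -0.69 ± 0.17 in DTEC (adjusted p = 0.00290). CENPW, CENPL and OIP5, which also serve the inner kinetochore, fell by day 7 and were lower again at day 28 (-0.82, -0.40 and -0.59 between the times, adjusted p = 0.00248, 0.00188 and 0.0165, edgeR), and were named after their values were seen.

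Of 38 DNA replication genes 36 fell by day 7 (33.3% of tested genes; median -1.21) and 38 were below untreated at day 28 (26.3% of tested genes; median -0.94). Between the times 17 were higher, 4 lower and 17 not called (28.8% and 26.6% of tested genes were higher and lower; median 0.25). The median recovered share was 20.5% over 36 replication genes, 38% over 49 of the other mitotic genes and 46.8% over 57 members, and no test compares these lists. Their promoters differ in letters too. CHR letters stood in 2.22% of 45 windows of replication genes and in 45.3% of 53 windows of the other mitotic genes, beside 60% of member windows, and E2F-type letters in 66.7%, 34.0% and 31.7%.

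**Figure D5:**
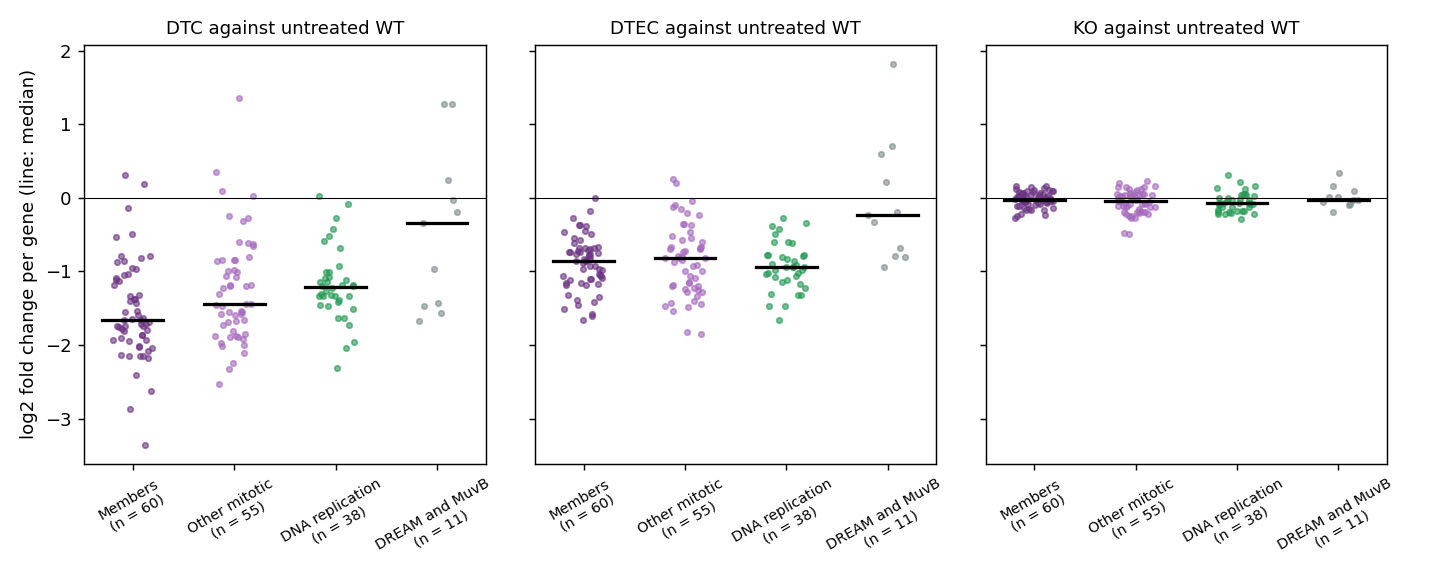
Log2 fold change of each gene (points) against untreated WT in DTC, DTEC and KO for the 60 members, 55 other mitotic genes, 38 DNA replication genes and 11 subunits of the DREAM and MuvB complexes, with the median of each list (line). The first 3 lists lie mostly below 0 in DTC and DTEC, with medians of -1.66, -1.44 and -1.21 in DTC, and all lists lie near 0 in KO.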

How the data were processed

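Polyadenylated RNA of 12 PC9 cultures was sequenced on 1 platform and in 1 batch, per the labels. The deposited table holds expected counts per gene for 62754 identifiers. The submitters' processing notes name RSEM 1.3.1, Bowtie2 2.5.2, DESeq2 1.40.2 and GRCh38, with no role or order, and the strand setting and annotation release are not given in the sources used here. Such counts are not whole where reads are shared between features, so overlapping genes and near-identical copies are less certain. The expected counts were rounded, kept with edgeR's filterByExpr by group (17115 genes), scaled by TMM and tested with edgeR 4.0.16 (R 4.3.3) quasi-likelihood tests on all 12 libraries, with Benjamini-Hochberg adjustment over all tested genes. The p-values measure only the spread between cultures of 1 flask. Steps were tested on simulated data. Gene positions and exon lengths came from GENCODE 29 (GRCh38). In each role group the members with the lowest and highest recovered share were named, with PLK1, CDK1, AURKB, CDC20, FOXM1, MYBL2, MKI67, each member that departed from most, and the 2 lowest and 2 highest of the other mitotic genes in DTC. Members and lists were chosen with earlier results of these data known. The alternatives were 19: other scalings, no count filter, DESeq2 1.42.0, the compared libraries alone, a replicate block, and each of 12 libraries left out.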

Additional observations from a re-analysis of the deposited data

Results flagged for a closer look

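Members moved in opposite directions between the time points: 45 members were higher at 28 than at 7 days and 7 were lower, by the direct test between DTEC and DTC. The log2 differences of the 7 were -0.54 for CDK1, -0.58 for MAD2L1, -0.36 for CENPI, -0.36 for CENPK, -0.29 for CENPN, -0.54 for CENPU and -0.31 for DSN1. Of the 7, 4 belong to the inner kinetochore. The call was kept in all 19 alternative settings for CDK1, MAD2L1 and CENPU, in 17 for CENPI and CENPN, and in 14 for CENPK and DSN1.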

How the results depend on the processing

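Scaling moved the sizes most. With library totals alone the median of all tested genes shifted by 0.35 in DTC and 0.17 in DTEC on the log2 scale, and -0.19 between them; with the upper quartile by 0.29, 0.11 and -0.17. The members' medians were then -1.30 and -1.37 in DTC, -0.69 and -0.74 in DTEC, and 0.51 and 0.53 between the times, and the median percent of untreated was 40.5 and 38.6 in DTC and 62.1 and 59.8 in DTEC (103.3 in KO with totals). Relative to all genes the members stayed low. Of all calls, 50.5% were higher in DTC, against 68.4% with totals and 65.0% with the upper quartile; in DTEC 49.7% against 63.7% with totals; between the times 51.9% against 37.4% and 38.7%; and in KO 64.1% against 78.8% with totals.

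The number of members that rose in DTC was 2 with totals and the upper quartile, and 0 without a count filter and with the compared libraries alone. Those lower in DTEC than DTC were 4 without a filter, 3 with the compared libraries alone and 10 with totals and with the upper quartile, where 40 were higher. Members below untreated in DTEC were 51 with totals and 55 by upper quartile, and leaving out untreated WT replicate 1 gave 52. In KO the genes called were 1147 without a filter, 1149 with DESeq2 and 2656 with the compared libraries alone, which also called 3 members, 1 lower and 2 higher; the KO median was 0.047 with totals, 0.0018 without a filter and 0.0022 with the compared libraries alone.

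With 1 library left out, CENPU in DTC ran from -0.22 to 0.034, DSN1 in DTEC from -0.037 to 0.057 and UBE2C between the times from -0.12 to 0.066. CENPU in DTC turned to 0.22 with totals, 0.15 with the upper quartile and 0.034 without DTC replicate 1. UBE2C between the times turned to -0.17 with totals, -0.0025 with RLE, -0.16 with the upper quartile, -0.0025 with DESeq2, -0.099 without DTC replicate 1, -0.12 without DTEC replicate 3 and -0.00068 without KO replicate 3. DSN1 in DTEC turned to -0.025 without untreated WT replicate 2 and -0.037 without DTEC replicate 3. The cause was not tested.

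By the same omissions, members that rose in DTC ran from 0 to 2, those lower in DTEC than DTC from 4 to 8, and the medians for DTC from -1.68 to -1.52, for DTEC from -0.87 to -0.79, 0.62 to 0.72 between the times and -0.025 to 0.046 in KO. The genes called for DTC ran from 10867 to 12323, for DTEC from 7766 to 10175, 8332 to 10610 between the times and 321 to 1520 in KO, with 0 to 1 members called in KO, 0 to 1 of them lower. The median percent of untreated for DTC ran from 31.2 to 34.9, for DTEC from 54.6 to 58.0 and for KO from 98.2 to 103.3, and the recovered share from 42.2 to 49.6.

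With a replicate block the members called were 58 in DTC, 58 in DTEC, 52 between the times and 0 in KO, and DSN1 in DTEC turned to -9.89e-05. Deviations from the group mean had correlations with untreated WT of 0.179, 0.060 and 0.096 for same-numbered DTC libraries. Differently numbered ones ran from -0.184 to 0.107. For KO the same-numbered values were 0.063, 0.053 and 0.038 and the others ran from -0.048 to -0.0019. Between DTEC and DTC the same-numbered values were 0.139, -0.013 and 0.138. The numbers are not stated to be shared across groups and were not taken as pairs. Whether they are shared was not tested.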

Other observations

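The subunits of the DREAM and MuvB complexes, which repress or activate late cell cycle genes, were called in both directions. Of 11 genes 6 fell and 2 rose in DTC (33.3% and 34% of tested genes), 5 were lower and 4 higher than untreated in DTEC (26.3% and 26%), and 0 were called in KO (4.31%, edgeR). With so few genes these counts are not read as a result about the list. RBL2, the pocket protein p130, rose from 26.3 ± 0.807 CPM in untreated WT to 63.6 ± 7.74 in DTC and 93.2 ± 10 in DTEC, log2 fold changes of 1.27 ± 0.11 and 1.83 ± 0.11 (adjusted p = 1.64e-07 and 2.50e-08, edgeR). LIN37, a MuvB subunit, rose by 1.28 ± 0.19 in DTC (adjusted p = 3.28e-05). E2F4, the E2F of DREAM, had log2 fold changes of -1.67 ± 0.10 in DTC and -0.68 ± 0.09 in DTEC (adjusted p = 3.30e-09 and 3.71e-05).

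Of 17 tubulin and other microtubule genes 9 fell and 6 rose in DTC, where 33.3% and 34% of tested genes did, and 10 were lower and 1 higher than untreated in DTEC, where 26.3% and 26% were. TUBA1A, an alpha-tubulin isotype, went from 3.42 ± 0.389 CPM to 216 ± 57.6 in DTC and 21.2 ± 3.23 in DTEC (5.98 ± 0.22 in DTC, adjusted p = 7.57e-11, edgeR). Tubulin genes have near-identical copies, so reads may be split among them and their single values are uncertain.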
